A study of Macaca mulatta with 24 samples.

Results

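Jejunal gene expression on day 4 after total-body irradiation (TBI) with 7.4 Gy was compared with that of unirradiated animals. The members were the 4 arrays labelled with 7.4 Gy and day 4 and the 4 control arrays, also labelled day 4, which make 8 of the 24 arrays of the series. The animals were young-adult male rhesus macaques, exposed to a single uniform dose of cobalt-60 gamma rays or sham-irradiated, and each gave 1 piece of full-thickness jejunum whose RNA was hybridised unpooled to a 1-colour Agilent rhesus array. A full-thickness piece holds epithelium, immune cells, stroma, muscle, nerves and blood, so in these bulk samples fewer cells of a type and less RNA per cell cannot be told apart. The other arrays of the series held 6.7 Gy on day 4 and both doses on days 7 and 12; the 4 arrays of 6.7 Gy on day 4 and the 4 of 7.4 Gy on day 7 are used here for comparison. All non-control probes were considered, 43603 in number, and 28168 were tested because some group had them well above background on all of its arrays. The level of a probe is log2 of its signal less the 75th percentile of log2 signals on that array, so a level of 0 lies at that percentile, and a change is the mean level after 7.4 Gy minus the mean level in controls.

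The jejunum is the middle part of the small intestine. Stem cells at the crypt base renew its epithelium, and their progeny become absorptive enterocytes, which carry digestive enzymes and nutrient transporters on a brush border, or goblet, Paneth, enteroendocrine and tuft cells. Ionising radiation breaks DNA and stabilises the transcription factor p53, which switches on genes that halt the cell cycle, repair DNA or start apoptosis. Dividing crypt cells are among the most sensitive cells of the body to this damage, and loss of the epithelium is followed by inflammation and repair of the mucosa. The tissue label was borne out on the 4 control arrays by the enterocyte genes FABP1 (levels of 7.76, 7.92, 7.62 and 7.77), SLC5A1 (4.94, 4.15, 4.10 and 4.17) and LCT (4.20, 4.26, 4.15 and 3.74), a fatty acid binding protein, the sodium-glucose cotransporter and lactase. The ileal genes FABP6 (-2.19, -1.25, -2.70 and -2.40) and SLC10A2 (-5.50, -4.77, -5.45 and -5.27), which serve bile acid uptake, were low there. On the irradiated arrays FABP6 stood at 5.88, 3.12, -0.34 and 1.26 and so was not low on each of them.

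The arrays differed in what they could detect. Between 51.2% and 87.7% of probes were well above background on the control arrays and between 39.4% and 85.5% after 7.4 Gy, and the lowest such signal was highest on control replicate 4 and on 7.4 Gy replicates 2 and 3. Values are therefore also given with a common floor where it moved a called change described here by over 1.5 times, and for a few others. With this floor every level below the highest detection limit of the 8 arrays was raised to that limit, and 57 of the 106 called probes of the named genes kept their call. The controls lay at position 1 of slides 1 to 4 and the irradiated samples at position 2 of slides 3 to 6, so that position and irradiation cannot be told apart within these 8 arrays. All 4 control arrays were scanned on the first scan day, as were irradiated replicates 1 and 2, while irradiated replicates 3 and 4 were scanned on the other.

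After 7.4-Gy TBI 732 probes changed by at least 2-fold at an adjusted p under 0.05 (limma, Benjamini-Hochberg), 2.6% of those tested. Of these, 482 were up-regulated (1.71%) and 250 down-regulated (0.888%), and 485 had signal well above background throughout the 8 arrays. Among the rises 40 were detected on every irradiated array but not on every control, and among the falls 94 on every control but not on every irradiated array. Such a probe entered the test through groups in which it was high, so its test gives no support to the change by itself. Of the called probes of the named genes this applied to rises of CTGF, CXCL8, LCN15, MMP12, SLC5A11, TMEM211, 2 KLK3 probes and the dim MDM2 probe, and to falls of GHRL, MLN, PROC, PYY, 2 HBB probes and the dim HBA2 probe. Another 85 rises and 7 falls were detected throughout neither group and entered through other groups of the series. Among the named genes these were rises of BMP7, CCL8, CCR1, FCGR3, SLC6A20, ZMAT3 and 1 TRIM22 probe, whose tests are likewise a description. The calls covered 394 gene symbols, while 273 called probes carried none. Levels of the groups did not overlap for 724 of the called probes, against 17.4% of all tested probes. Without the 2-fold limit 1514 probes passed (5.37%), 859 higher (3.05%) and 655 lower (2.33%). With each symbol at its brightest probe, 351 of 11914 symbols were called (2.95%), 236 higher (1.98%) and 115 lower (0.965%). Of all symbols 43.7% lay above 0 and 56.3% below, the shares to set beside the counts of the gene lists. When the percentile was taken over the probes that every array detected, 76.0% of 809 calls were higher, against 65.8% here. The number of calls fell to 295 without control replicate 2, 351 without control replicate 1 and 434 without 7.4 Gy replicate 1, to 299 with the common floor, to 174 with the scan day as a block, and to 17 when array position was a block in the model of all 24 arrays. Without control replicate 4 and 7.4 Gy replicates 2 and 3 together, 12 probes were called, 11 higher and 1 lower. The plot of change against control level shows the largest rises among probes that were dim in controls.

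**Figure D1:**
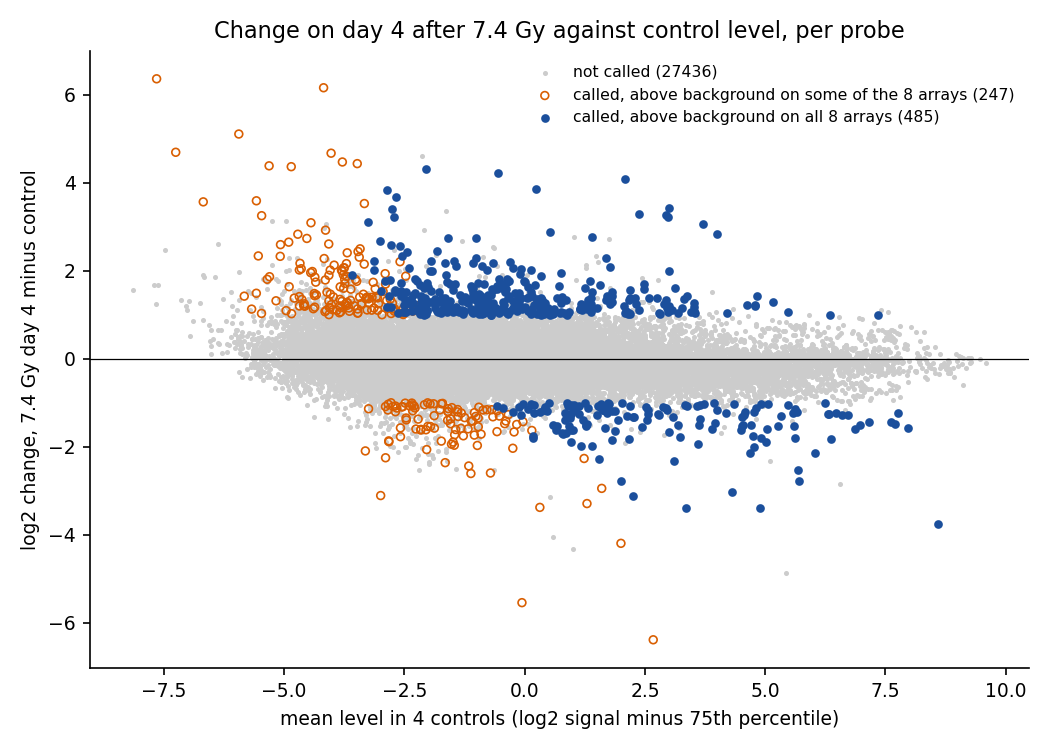
Each point is 1 of the 28168 tested probes, with its mean level in the 4 controls (log2, relative to the array's 75th percentile) on the x axis and its log2 change after 7.4 Gy on the y axis. The 485 called probes detected on all 8 arrays (filled) lie mostly to the right of the 247 detected on some of them (open), which include the changes beyond 5 on the log2 scale.

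Several genes that p53 switches on were up-regulated on day 4. Of 23 tested p53 targets 10 were up-regulated and none was down-regulated, where 1.98% of 11914 gene symbols rose and 0.965% fell at their brightest probe, and the median change of the list was 1.05 against -0.06 over all symbols. With the common floor the median of the list was 0.31. GDF15, a stress-induced secreted cytokine of the TGF-beta family, had levels of 0.44, -0.49, 0.37 and 0.59 in the controls and 3.97, 4.44, 3.96 and 3.96 after 7.4 Gy. The irradiated samples lay within 0.480 of each other and far above every control, a change of 3.86 (SE 0.248, adjusted p = 0.000494) or 14.5-fold. DDB2, which recognises damaged DNA for nucleotide excision repair, stood at 1.28, 1.21, 1.50 and 1.61 in the controls and 4.07, 4.35, 3.96 and 4.26 after irradiation, a change of 2.76 (SE 0.155, adjusted p = 0.000346), and its groups lay 2.36 apart at their nearest. EDA2R, the receptor of ectodysplasin A2 in the TNF receptor superfamily, went from -3.02, -2.84, -2.51 and -3.04 to 1.25, 0.57, 1.19 and 0.87, a change of 3.82 (SE 0.198, adjusted p = 0.000346). PHLDA3, an inhibitor of the kinase AKT, showed the same absence of overlap, with -2.61, -2.86, -2.56 and -2.33 in the controls, 0.29, 0.21, -0.16 and -0.45 after 7.4 Gy and a change of 2.56 (SE 0.201, adjusted p = 0.00166). The other members that rose were ZMAT3, an RNA-binding protein, by 2.17 (adjusted p = 0.0036), the kinase PLK2 by 1.99 (adjusted p = 0.00924), the death receptor FAS by 1.60 (adjusted p = 0.0108), the metabolic regulator TIGAR by 1.53 (adjusted p = 0.0133), the pore-forming apoptosis protein BAX by 1.11 (adjusted p = 0.00873) and the cell cycle inhibitor CDKN1A by 1.05 (adjusted p = 0.0182). CDKN1A levels were 3.28, 3.22, 2.91 and 3.37 in the controls against 4.34, 4.31, 4.47 and 3.85, so that a gene already well expressed in control jejunum was 2.07-fold higher.

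Not every p53 target moved. The brightest probe of MDM2, the ubiquitin ligase that degrades p53, gave 0.00 (adjusted p = 0.997), whereas its other tested probe rose by 2.31 (SE 0.138, adjusted p = 0.000346), from -3.36, -3.43, -3.29 and -3.68 to -1.24, -1.07, -1.19 and -1.04. The probes of this gene thus disagree, and the dimmer one entered the test through irradiated groups in which it was high. SESN1, an antioxidant stress protein, had a change of 0.89 with an adjusted p of 0.0318, below the 2-fold limit, and PMAIP1, a pro-apoptotic BCL2 family member, one of 1.54 that missed the test (adjusted p = 0.063). TP53I3, BTG2, GADD45A and CCNG1 gave -0.61, 0.36, 0.31 and 0.52 and none passed. Among 27 tested genes of the apoptosis list FAS and BAX were the 2 called. CDKN1A lost its call when control replicate 2 or 3 or 7.4 Gy replicate 1 or 3 was left out (0.96 to 1.06), whereas BAX kept it in all 8 omissions (1.03 to 1.18). With the common floor the second MDM2 probe, detected on 3 of 4 controls, changed by 0.72, which is under 2-fold, the changes of EDA2R and PHLDA3 were 2.82 and 1.82, and that of ZMAT3, detected on 3 of 4 arrays in each group, was 0.00.

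**Figure D2:**
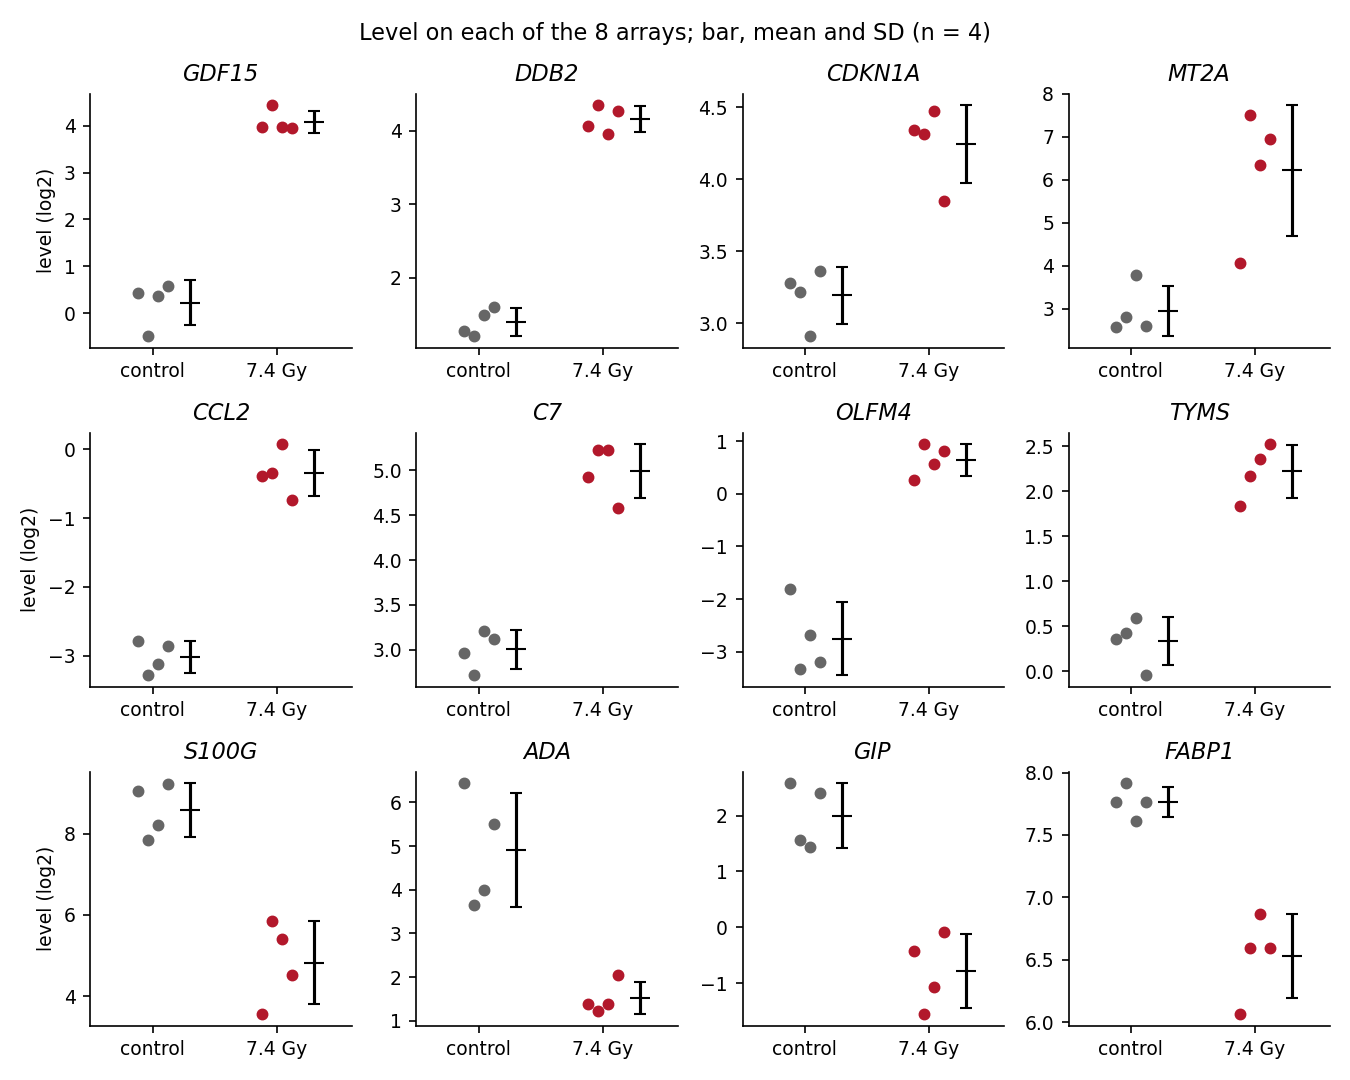
Levels (log2, relative to the array's 75th percentile) of 12 genes on the 4 control and 4 irradiated arrays, with the mean and SD at the right of each group. The groups do not overlap for any of the 12 genes; the irradiated MT2A levels spread from 4.06 to 7.51, those of GDF15 from 3.96 to 4.44.

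Metallothioneins, small cysteine-rich proteins that bind zinc and copper, were among the genes that rose most. Of 7 tested members of the list, which also holds the zinc sensor MTF1 and the zinc exporter SLC30A1, 4 were up-regulated: MT1X by 3.43 (SE 0.605, adjusted p = 0.0199), MT4 by 3.28 (adjusted p = 0.0318), MT2A by 3.27 (adjusted p = 0.0317) and MT1E by 2.83 (adjusted p = 0.0341). A second MT2A probe rose most, from 1.93, 1.89, 2.39 and 2.14 in the controls to 4.13, 7.51, 6.37 and 6.67 after 7.4 Gy, a change of 4.08 (SE 0.608, adjusted p = 0.0127) or 17-fold. In the irradiated samples replicate 1 was lowest and replicate 2 highest for each of MT1X, MT4, MT2A and MT1E. Metallothionein transcripts are alike in sequence, and the probes may share signal. MT3 (-0.32), MTF1 (-0.01) and SLC30A1 (0.40) did not pass. At their brightest probes MT4, MT2A and MT1E each lost the call in 7 of the 8 omissions of single arrays, where changes ran 2.81 to 4.00, 2.84 to 3.99 and 2.41 to 3.43 over the 8 omissions, and MT1X lost it without control replicate 1 (3.37) or 2 (3.33); the second MT2A probe kept it in all 8 omissions (3.64 to 4.76).

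Other redox genes moved in both directions. GPX2, the glutathione peroxidase of gut epithelium, rose from 2.23, 1.51, 1.56 and 1.77 to 3.89, 3.41, 4.08 and 4.00, by 2.08 (SE 0.214, adjusted p = 0.00393). HMOX1, the heme oxygenase that breaks down heme, was instead down-regulated, from 4.73, 3.95, 4.63 and 4.77 to 3.09, 3.51, 3.12 and 3.07, a change of -1.33 (SE 0.211, adjusted p = 0.0156). All irradiated GPX2 levels lay above, and all irradiated HMOX1 levels below, those of the controls. Catalase (CAT, -0.81, adjusted p = 0.0137) and SOD1 (-0.67, adjusted p = 0.0447) passed the test under 2-fold, and the remaining 12 of 16 tested members of the oxidative stress list did not pass. Of 11 genes of iron handling HMOX1 alone was called.

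Chemokines are secreted proteins that attract leukocytes. Of 27 tested, 8 were up-regulated, against 1.98% of all symbols, and none was down-regulated. The median change was 1.22, or 0.75 with the common floor. CCL19, which guides T cells and dendritic cells through the receptor CCR7, went from -2.21, -2.79, -3.15 and -2.56 in the controls to 0.03, 0.66, 1.87 and 1.46 after 7.4 Gy, a change of 3.68 (SE 0.39, adjusted p = 0.00393). The monocyte attractant CCL2 had -2.79, -3.28, -3.13 and -2.87 against -0.39, -0.35, 0.08 and -0.73, a change of 2.67 (SE 0.2, adjusted p = 0.00149), and the groups stayed more than 2 log2 units apart. The neutrophil attractant CXCL8 changed by 2.83 (SE 0.499, adjusted p = 0.0199), from -4.90, -4.40, -4.18 and -5.39 to -1.58, -3.40, -1.64 and -0.93. CXCL8 was tested through irradiated groups that detected it, so its value is a description. The eosinophil attractant CCL11 rose by 2.11 (adjusted p = 0.0325), CCL8 by 1.76 (adjusted p = 0.0413), the CCR7 ligand CCL21 by 1.35 (adjusted p = 0.0219), CCL18 by 1.22 (adjusted p = 0.0146) and the stromal chemokine CXCL12 by 1.06 (adjusted p = 0.0413). Changes of 2-fold or more that did not pass were those of CXCL1 (2.97, adjusted p = 0.0608), CXCL10 (2.00, adjusted p = 0.0768), CXCL9 (1.71, adjusted p = 0.105), CCL20 (1.99, adjusted p = 0.102) and others, and CXCL11 gave -1.43 (adjusted p = 0.217). Several of these genes were dim: with the common floor CCL19 changed by 2.85, CCL2 by 1.50, CXCL8 by 0.35 and CCL8 by 0.36. CCL11, CCL8, CXCL12 and CCL21 lost the call when single arrays were left out (in 6, 7, 7 and 4 of 8 omissions), as did CXCL8 without control replicate 1 (2.77) or 2 (2.93) or 7.4 Gy replicate 1 (2.73), and no omission turned the sign of a called chemokine. With array position as a block in the model of all 24 arrays CXCL8 gave -0.16.

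Of genes for the docking of leukocytes to vessels 2 of 10 were called, and of interferon response genes 3 of 21, where 2.95% of all symbols were. Of 11 chemokine receptors 2 were called higher and 1 lower. VCAM1, the endothelial adhesion molecule for lymphocytes and monocytes, rose from -0.46, -0.58, -0.36 and -0.18 to 0.95, 1.05, 1.62 and 1.12, by 1.58 (SE 0.18, adjusted p = 0.00536), and the hyaluronan receptor CD44 by 1.26 (adjusted p = 0.0101); the other 8 tested adhesion genes were not called. ACKR1, the chemokine-binding receptor of venules, rose from -0.56, -0.30, -0.52 and 0.03 to 1.58, 1.10, 1.63 and 1.39, by 1.76 (SE 0.186, adjusted p = 0.00393), while ACKR4, a scavenger of CCL19 and CCL21, fell from 1.24, 0.54, 1.04 and 1.00 to -0.18, -0.10, -0.32 and 0.18, a change of -1.06 (SE 0.187, adjusted p = 0.0199). In neither gene did the groups overlap. The chemokine receptor CCR1 changed by 1.20 (adjusted p = 0.0102), but by 0.00 with the common floor. Among 18 TNF and NF-kB targets IER3, an early stress response gene, was called (1.81, adjusted p = 0.00393), and among 18 interleukin genes the receptor IL1R1 (1.38, adjusted p = 0.0164). The interferon response list had a median of 0.88 (0.48 with the common floor), with 20 of 21 members above 0 against 43.7% of all symbols, and 3 called: the antiviral genes IFIT1 (1.30, adjusted p = 0.0382), MX1 (1.25, adjusted p = 0.043) and GBP1 (1.06, adjusted p = 0.0401). These last calls were lost in 7, 8 and 7 of the 8 omissions of single arrays, with changes of 1.13 to 1.56, 1.09 to 1.42 and 0.93 to 1.28. ACKR4 lost its call in 5 omissions (-1.20 to -0.96), and MX1 gave -0.26 with array position as a block in the model of all 24 arrays.

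Complement genes were up-regulated in 5 of 14 tested cases, against 1.98% of all symbols, with none down-regulated and a median of 0.69. C7, a component of the membrane attack complex, rose from 2.96, 2.72, 3.21 and 3.13 to 4.93, 5.22, 5.22 and 4.58, by 1.99 (SE 0.19, adjusted p = 0.0036), and was bright on every array. SERPING1, the inhibitor of the first complement component, rose from 3.45, 3.41, 3.43 and 3.80 to 4.94, 4.50, 4.80 and 4.56, by 1.18 (SE 0.159, adjusted p = 0.0101). CFB (1.90, adjusted p = 0.0107), which drives the alternative pathway, and the receptor C3AR1 (1.10, adjusted p = 0.0176) were also called, whereas C3 itself gave 1.61 (adjusted p = 0.134). C3AR1 lost its call without control replicate 2 (1.14) or 4 (0.97), and CFB changed by 0.20 with the common floor. Of 21 genes of coagulation and fibrinolysis 4 rose and 1 fell. The plasminogen activator PLAU rose by 1.71 (adjusted p = 0.0259), the protease inhibitors SERPINE2 and A2M by 1.69 (adjusted p = 0.0191) and 1.59 (adjusted p = 0.0133), and the anticoagulant PROS1 by 1.06 (adjusted p = 0.0133); PROC, the precursor of activated protein C, fell by 1.49 on the log2 scale (adjusted p = 0.0336). Calls of PLAU, SERPINE2 and PROC were lost in 7, 3 and 6 omissions, with changes of 1.54 to 2.07, 1.49 to 1.93 and -1.69 to -1.32, and that of PROS1 without control replicate 3 (1.00) or 7.4 Gy replicate 1 (0.95).

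Matrix genes of fibroblasts were the list with the most calls. Of 21 tested, 11 were up-regulated, against 1.98% of all symbols, and none was down-regulated. Above 0 lay 20, against 43.7% of symbols, and the median change was 1.12. The mean level of the list ran from 0.59 to 0.96 in the controls and 1.40 to 2.24 after irradiation. Periostin (POSTN), a matrix protein of healing tissue, went from -1.63, -1.23, -0.24 and -0.05 to 2.13, 1.02, 1.01 and 0.77, by 2.02 (SE 0.416, adjusted p = 0.0317). Versican (VCAN), a large proteoglycan, had -0.28, -0.60, -0.40 and -0.64 against 1.54, 1.09, 1.27 and 0.59, a change of 1.60 (SE 0.211, adjusted p = 0.00971), though another VCAN probe gave -0.52. Fibronectin (FN1) rose by 1.34 (adjusted p = 0.0169) and the collagens COL6A3, COL3A1, COL1A2 and COL12A1 by 1.61, 1.29, 1.14 and 1.14. COL1A1 (0.30, adjusted p = 0.359) was not called. Of the matrix metalloproteinases and their inhibitors 3 of 17 rose. MMP12, the macrophage elastase, went from -4.12, -5.34, -5.16 and -4.79 to 0.31, 0.26, -0.09 and -2.45, a change of 4.36 (SE 0.593, adjusted p = 0.0101) that fell to 1.51 with the common floor, while the gelatinase MMP2 rose by 1.52 (adjusted p = 0.00442) and the inhibitor TIMP1 by 1.38 (adjusted p = 0.0291). MMP12 was tested through irradiated groups that detected it, so its value is a description. POSTN lost its call in 6 of 8 omissions (1.72 to 2.27), COL3A1 and COL1A2 in 7 each (1.05 to 1.47 and 0.89 to 1.28), COL12A1 without control replicate 2 (1.04) or 3 (1.10), TIMP1 in 5 (1.16 to 1.56) and COL6A3 without control replicate 1 (1.47) or 2 (1.52).

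Wnt, BMP and Notch signalling set the balance of stem cells and differentiation along the crypt. Of 22 tested genes of these pathways 6 were up-regulated and none was down-regulated, and the median was 0.30, or 0.14 with the common floor. The Wnt antagonist WIF1 went from levels between -1.11 and -0.87 in the controls to 0.45, 2.00, 1.67 and 1.03, by 2.30 (SE 0.306, adjusted p = 0.00988), and the BMP antagonist GREM1 from 1.46, 0.93, 1.31 and 1.77 to 3.27, 2.92, 3.66 and 2.65, by 1.76 (SE 0.256, adjusted p = 0.012). Both gave groups without overlap. SFRP2 (2.02, adjusted p = 0.0354), SFRP1 (1.00, adjusted p = 0.0221) and the ligand BMP7 (1.99, adjusted p = 0.0173) were also called; the common floor brought SFRP2 to 0.86 and BMP7 to 0.24. SFRP2 and SFRP1 lost their calls in 6 omissions each (1.74 to 2.42 and 0.90 to 1.13) and BMP7 without control replicate 1 (1.91). Of 16 genes of the wound list CTGF, a matricellular growth factor target, was called (1.63, adjusted p = 0.0427), but it changed by 0.14 with the common floor and lost the call in 7 omissions (1.35 to 1.85).

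Genes of the crypt base and of cell division were listed apart. Of 12 crypt base genes 3 were up-regulated, against 1.98% of all symbols. All 12 were above 0, against 43.7% of symbols, with a median of 0.69, or 0.37 with the common floor. OLFM4, a secreted glycoprotein of crypt base cells, had -1.80, -3.33, -2.69 and -3.19 in the controls and 0.26, 0.94, 0.56 and 0.80 after 7.4 Gy, a change of 3.40 (SE 0.329, adjusted p = 0.0036) or 10.5-fold. No irradiated level came near a control level. The Wnt target transcription factor ASCL2 rose by 1.32 (adjusted p = 0.0175) and the receptor EPHB3, which positions cells in the crypt, by 1.47 (adjusted p = 0.0234), while the stem cell receptor LGR5 gave 0.24 (adjusted p = 0.619). For OLFM4 the direction turned to -1.28 when array position was a block in the model of all 24 arrays; with the common floor OLFM4 changed by 2.48 and ASCL2 by 0.78, where ASCL2 was not called (adjusted p = 0.0847). EPHB3 changed by 0.11 with that floor and lost the call in 5 omissions (1.25 to 1.67), and ASCL2 lost it without control replicate 1 (1.32) or 2 (1.26). Of 21 mitosis genes none was called and none reached even an unadjusted p under 0.05, and their median was 0.08 (0.02 with the common floor). This median ran from -0.21 to 0.21 with 1 array left out. TOP2A, the topoisomerase of dividing cells, had 1.47, 1.22, 1.36 and 1.22 against 1.01, 1.32, 1.25 and 2.37, and the irradiated replicate 4 was above the other 7 arrays. BIRC5 and CDC25C, the mitosis genes of smallest p, gave -0.68 (adjusted p = 0.238) and -0.42 (adjusted p = 0.526). Of 19 DNA replication genes TYMS, the thymidylate synthase, was the one called, rising from 0.36, 0.43, 0.59 and -0.04 to 1.83, 2.17, 2.36 and 2.53, by 1.89 (SE 0.199, adjusted p = 0.00393). Among 6 Paneth cell genes NUPR1, a stress-induced chromatin protein, was called (1.03, adjusted p = 0.012), and lost the call without control replicate 1 (0.99) or 2 (0.98) or 7.4 Gy replicate 2 (0.97).

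**Figure D3:**
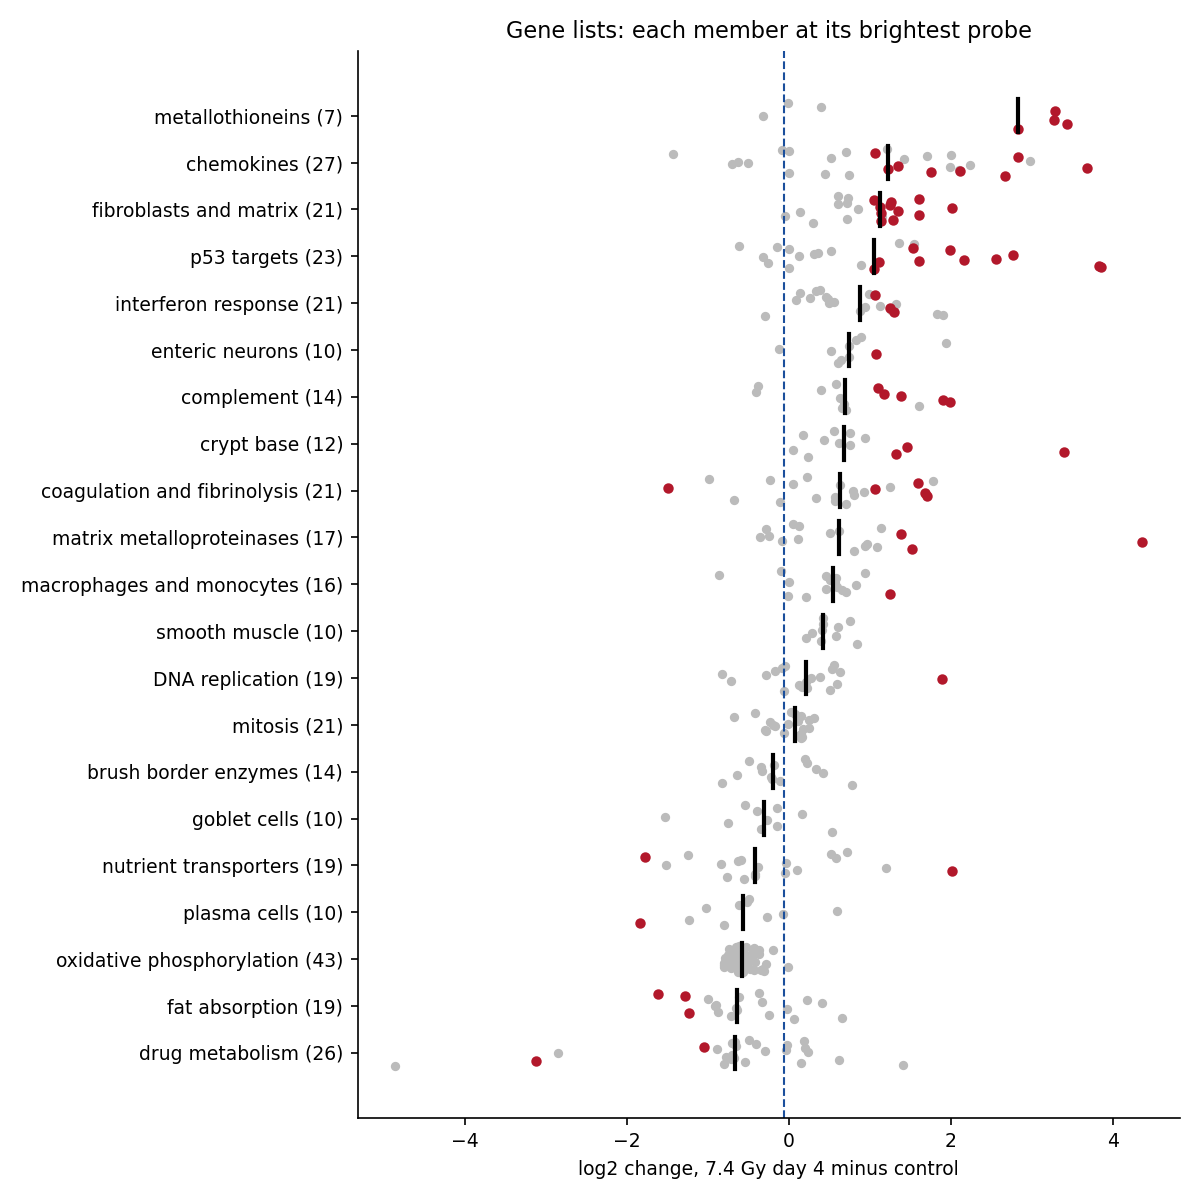
Each point is 1 gene of a list at its brightest probe, with its log2 change after 7.4 Gy on the x axis; red points were called, black bars are list medians, numbers in brackets are genes tested and the dashed line is the median of all 11914 symbols (-0.06). Metallothioneins, chemokines, matrix genes and p53 targets have medians above 1 as measured, and the 43 oxidative phosphorylation genes all lie below 0.

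Genes of absorptive and hormone-producing cells were among the named falls. S100G, calbindin D9k, which carries calcium through enterocytes under the control of vitamin D, fell most among called probes that had a symbol, were detected on all 8 arrays and did not overlap between groups, from 9.07, 7.85, 8.23 and 9.22 to 3.55, 5.85, 5.40 and 4.51, a change of -3.76 (SE 0.509, adjusted p = 0.0101), which is 13.6-fold lower. It had been one of the brightest probes in control jejunum, and its groups lay 2.00 log2 units apart at their nearest. ADA, the adenosine deaminase of purine breakdown, went from 6.44, 3.66, 3.99 and 5.51 to 1.39, 1.23, 1.40 and 2.06, a change of -3.38 (SE 0.567, adjusted p = 0.0176). Hormone genes of enteroendocrine cells fell in 4 of 13 cases and none rose, while 6 of 13 lay above 0 (the highest at 0.99) and the median of the list was -0.01, or 0.31 over the members detected on all 8 arrays. GIP, the incretin of K cells, had 2.59, 1.56, 1.44 and 2.40 against -0.42, -1.56, -1.07 and -0.08, a change of -2.78 (SE 0.377, adjusted p = 0.0101). Motilin (MLN) changed by -2.94 (adjusted p = 0.0369), ghrelin (GHRL) by -2.61 (adjusted p = 0.00536) and peptide YY (PYY) by -1.54 (adjusted p = 0.0293). Ghrelin and peptide YY were dim after irradiation, and with the common floor they changed by -0.73 and -0.12. Motilin, ghrelin and peptide YY entered the test through groups in which they were high, and of the 4 falls GIP alone was detected on all 8 arrays. MLN and PYY lost the call in 6 omissions each (-3.31 to -2.47 and -1.68 to -1.31), and a second ADA probe, which fell by 3.40 on the log2 scale, lost it without 7.4 Gy replicate 1 (-3.34) or 2 (-3.24).

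The enterocyte also holds enzymes that handle drugs and foreign compounds. Of 26 tested, 2 were down-regulated, none was up-regulated, and the median was -0.66. CYP2D6, a cytochrome P450 that oxidises many drugs, fell from 3.09, 2.64, 1.51 and 1.77 to -1.02, -0.90, -0.35 and -1.21, a change of -3.12 (SE 0.355, adjusted p = 0.00536), with no overlap. CES2, an intestinal carboxylesterase, fell by 1.04 on the log2 scale (adjusted p = 0.0193) and lost its call in 4 omissions (-1.19 to -0.95). The glutathione S-transferase GSTA1 fell at 1 probe, from 6.27, 6.23, 6.02 and 5.64 to 3.23, 3.68, 4.73 and 4.00, a change of -2.13 (SE 0.307, adjusted p = 0.0114); its brightest probe gave -2.85 (adjusted p = 0.0551). Another 4 probes without a symbol, which the file describes as glutathione S-transferase A3 and which were chosen after their values were seen, changed by -3.04, -2.77, -1.58 and -1.48 and were called, the last pair losing the call in 5 and 4 omissions (-1.75 to -1.37 and -1.65 to -1.26). These transferases are near-identical copies, and their probes may share signal. CYP1A1, the enzyme induced through the aryl hydrocarbon receptor, had the list's largest change, -4.86 (adjusted p = 0.172), without passing: its irradiated levels were 6.22, -3.62, 2.47 and -2.72, against 6.04, 5.66, 3.54 and 6.53 in the controls, so replicate 1 stayed at the control level and replicates 2 and 4 fell far below. After 6.7 Gy on day 4 CYP1A1 changed by -7.91 against the same controls (limma, adjusted p = 0.00142). The dose difference was 3.05 (SE 1.57, limma, unadjusted p = 0.0662).

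Fat absorption genes fell in 3 of 19 cases, with a median of -0.64. FABP1, a fatty acid carrier of the enterocyte, had 7.76, 7.92, 7.62 and 7.77 in the controls and 6.07, 6.60, 6.87 and 6.59 after 7.4 Gy, a change of -1.23 (SE 0.184, adjusted p = 0.0129). The fatty acid transporter SLC27A4 fell by 1.61 on the log2 scale (adjusted p = 0.031) and GPD1, which makes the glycerol backbone of lipids, by 1.28 (adjusted p = 0.0177). FABP2 (-0.87, adjusted p = 0.154) and APOB (0.06, adjusted p = 0.922) did not pass, and MOGAT2 (-0.91, adjusted p = 0.0138) and SAR1B (-0.89, adjusted p = 0.0175) passed under 2-fold. Among 19 nutrient transporters the zinc importer SLC39A4 fell from 3.81, 2.93, 3.05 and 3.14 to 2.23, 1.10, 1.42 and 1.11, a change of -1.77 (SE 0.293, adjusted p = 0.0175), with no overlap. The proline transporter SLC6A20 changed by 2.02 (adjusted p = 0.0104), or 0.00 with the common floor, and the glucose carrier SLC5A1 gave -0.55 (adjusted p = 0.266). No brush border gene of 14 was called: their median was -0.19, lactase (LCT) gave 0.79 (adjusted p = 0.219), and TREH and MME, of smallest p, gave -0.82 (adjusted p = 0.186) and -0.63 (adjusted p = 0.204). The brush border median ran from -0.28 to -0.10 with 1 array left out. The ileal gene FABP6 had irradiated levels of 5.88, 3.12, -0.34 and 1.26 and a change of 4.61 (adjusted p = 0.0506), and SLC10A2 one of 2.13 (adjusted p = 0.0739); in the distal bowel list, whose median was 0.28 with 6 of 10 members above 0, GUCA2A, a guanylin hormone, was called higher (1.36, adjusted p = 0.0219) and PYY lower (-1.54). The median of the distal bowel list was 0.06 with the common floor and ran from 0.04 to 0.41 with 1 array left out. SLC27A4 lost the call in 7 omissions (-1.84 to -1.36), GUCA2A in 3 (1.19 to 1.50) and GPD1 without control replicate 1 (-1.23) or 2 (-1.30).

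Oxidative phosphorylation is the mitochondrial production of ATP. None of 43 tested genes reached 2-fold, yet all 43 were below 0, where 56.3% of all symbols were, and 35 had an unadjusted p under 0.05, against 14.2% of symbols that were lower at that level. The median was -0.57 and 14 passed an adjusted p under 0.05 without the fold limit. SDHC, a subunit of succinate dehydrogenase, had 3.78, 3.59, 3.55 and 3.36 against 2.62, 2.81, 2.91 and 2.73, a change of -0.80 (SE 0.143, adjusted p = 0.0207), and SDHD one of -0.77 (adjusted p = 0.0219). The mean level of the list ran from 5.11 to 5.29 in the controls and 4.45 to 4.86 after irradiation, without overlap. Genes of sterol synthesis were all below 0 too (13 of 13, median -0.47), and none was called; STARD4 and NSDHL, of smallest p, gave -1.09 (adjusted p = 0.0772) and -0.49 (adjusted p = 0.156).

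Markers of the cell types of the wall were then examined. The mean level of the pan-epithelial markers ran from 3.19 to 3.44 in the controls and 2.91 to 3.37 after irradiation, none of 11 was called, and KRT18 and VIL1, a keratin and the microvillus protein villin, gave 1.10 (adjusted p = 0.0662) and -1.01 (adjusted p = 0.087). Goblet cell genes, of smallest p CLCA1 (-0.75, adjusted p = 0.0594) and AGR2 (-1.53, adjusted p = 0.0603), and tuft cell genes, GNG13 (-0.47, adjusted p = 0.117) and PTGS1 (0.61, adjusted p = 0.162), had no call. MARVELD2, a tight junction protein of 3-cell contacts, fell by 1.00 on the log2 scale (adjusted p = 0.0153), the one call among 13, which was lost in 3 omissions (-1.06 to -0.90). Plasma cell genes were below 0 in 9 of 10 cases (median -0.56), against 56.3% of all symbols. MZB1, a chaperone of antibody secretion, was called, from 1.97, 1.14, 1.46 and 2.67 to -0.27, -0.59, 0.63 and 0.11, a change of -1.84 (SE 0.367, adjusted p = 0.029), a call lost in 5 omissions (-2.06 to -1.55). The 6 tested B cell genes had no call: CD79B gave -0.60 (adjusted p = 0.101) and FCER2 1.05 (adjusted p = 0.119). No T or NK cell gene of 19 was called either, with CD3G at 0.85 (adjusted p = 0.0647) and GZMM at -0.71 (adjusted p = 0.0647). Macrophage and monocyte genes had a median of 0.54, and the endotoxin receptor CD14 rose by 1.25 (adjusted p = 0.0253), a call lost in 6 omissions (1.12 to 1.46). The neutrophil genes VNN2 (2.75, adjusted p = 0.0469) and FCGR3 (1.74, adjusted p = 0.0186) were called among 7, but VNN2 lost the call in 7 omissions (2.06 to 3.17) and FCGR3 changed by 0.00 with the common floor. Of the 7 neutrophil genes 3 were below 0. Their median was 0.17, or 0.00 with the common floor and -0.34 over the members detected on all 8 arrays.

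Smooth muscle genes were above 0 in 10 of 10 cases, against 43.7% of all symbols, without a call (median 0.42). ACTA2 gave 0.84 (adjusted p = 0.0555) and CALD1 0.61 (adjusted p = 0.185). The mean level of the list ran from 2.80 to 3.47 in the controls and 3.08 to 4.05 after irradiation. Among 10 neuronal genes the peptide transmitter VIP rose by 1.08 (adjusted p = 0.0244), a call lost in 6 omissions (0.92 to 1.20), and the median was 0.75; their mean levels ran from -1.01 to -0.65 in the controls and -0.22 to 0.38 after irradiation. Enteric glia (GPM6B 0.84, adjusted p = 0.0426), endothelium (SOX17 0.86 (adjusted p = 0.0952), VWF 0.79, adjusted p = 0.12) and mesothelium (UPK3B 0.38 (adjusted p = 0.424), ITLN1 -0.48, adjusted p = 0.54) had no call. The part of these marker levels in the changes of matrix, chemokine and enterocyte genes was not tested. Of 5 erythroid genes HBB, beta globin, fell from 1.54, 2.14, 3.22 and 3.78 to -2.09, -3.98, -4.04 and -4.74, a change of -6.38 (SE 0.634, adjusted p = 0.0036), and was well above background on 1 of 4 irradiated arrays. With the common floor it changed by -4.52 (adjusted p = 0.0136). The other HBB probe, also detected on 1 irradiated array, gave -5.54 (adjusted p = 0.00787), or -1.79 with the common floor (adjusted p = 0.0892). Both HBB probes entered the test through groups in which they were high, so their values are a description. HBA2 probes disagreed: 1 gave -4.19 (SE 0.442, adjusted p = 0.00393) and the brightest gave -0.54 (adjusted p = 0.157). Of 7 adipocyte genes, whose median was -1.17 or -0.48 with the common floor, 2 were down-regulated, GPD1, which the fat absorption list also holds, and the retinol carrier RBP4 (-1.65, adjusted p = 0.0185, lost without 7.4 Gy replicate 1 at -1.61), and the pancreatic protease CTRB1 rose by 1.33 (adjusted p = 0.0137). The adipocyte median ran from -1.30 to -0.42 with 1 array left out. Mast cell, eosinophil, platelet, Brunner gland, glucocorticoid response, heat shock and clock lists had no call; their members of smallest p were HPGDS (-0.32) and TPSB2 (-0.41), PRG3 (-0.37), GP9 (-0.43) and TREML1 (0.30), MUC6 (-0.51) and TFF1 (0.74), SGK1 (0.66) and TSC22D3 (-0.59), ASNS (1.08) and CRYAB (0.76), and CRY1 (-0.48) and PER2 (-1.05).

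Some genes with low levels in control jejunum had large rises on day 4. CST6, a secreted inhibitor of lysosomal proteases, rose most among the called probes that had a symbol, were detected on all 8 arrays and gave groups without overlap, from -0.31, -2.59, -2.82 and -2.46 to 2.26, 2.28, 2.96 and 1.52, by 4.30 (SE 0.546, adjusted p = 0.00811). Control replicate 1 lay 2.15 above the next control and 1.83 below the lowest irradiated sample. LCN15, a lipocalin, went from -3.42, -3.86, -5.55 and -3.28 to 0.70, 0.86, 0.71 and 0.31, by 4.67 (SE 0.452, adjusted p = 0.0036), or 2.49 with the common floor, the one call among 16 antimicrobial genes. The next 3 genes were not detected on all arrays and were chosen after their values were seen. KLK3, a kallikrein protease known from the prostate, had -3.97, -3.60, -3.85 and -5.31 in the controls and 1.68, 3.61, 1.23 and 1.39 after irradiation at 1 probe, a change of 6.16 (SE 0.563, adjusted p = 0.00356), or 3.83 with the common floor. Its second called probe was not well above background on any control array and was at least 25.6-fold higher after 7.4 Gy (adjusted p = 0.00967), but changed by 0.71 with the common floor (adjusted p = 0.615), while its other tested probe gave 1.09 (adjusted p = 0.117). TMEM211, a membrane protein, was likewise not above background on any control array and at least 10.6-fold higher (adjusted p = 0.0113), but changed by 0.08 with the common floor (adjusted p = 0.705). LCN15, TMEM211 and both called KLK3 probes were tested through the irradiated groups that detected them, so their values are a description. The inositol transporter SLC5A11 changed by 4.43 (adjusted p = 0.0198), or 2.80 with the common floor, and lost its call without control replicate 1 (4.47). For LCN2, an iron-scavenging lipocalin, a dim probe rose by 3.10 (adjusted p = 0.0244), or 1.69 with the common floor (adjusted p = 0.118), and the brightest gave -0.44 (adjusted p = 0.161).

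The remaining named falls were of genes outside the lists. An uncharacterized gene, LOC100423778, fell by 2.32 on the log2 scale (adjusted p = 0.031), the microtubule protein MAP1A by 2.01 (adjusted p = 0.0444), the peroxisome protein PEX26 by 1.99 (adjusted p = 0.0221) and the cornified envelope protein IVL by 1.95 (adjusted p = 0.0219). Their calls were lost in 5, 7, 4 and 3 of 8 omissions. TRIM22, an interferon-induced antiviral protein, fell by 2.28 at 1 probe (adjusted p = 0.0257), whereas both other probes rose, by 1.69 and 1.39 (the latter 0.16 with the common floor), so its direction depends on the probe. Other probes of MAP1A and PEX26 gave changes up to 0.38 and -0.26.

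**Figure D4:**
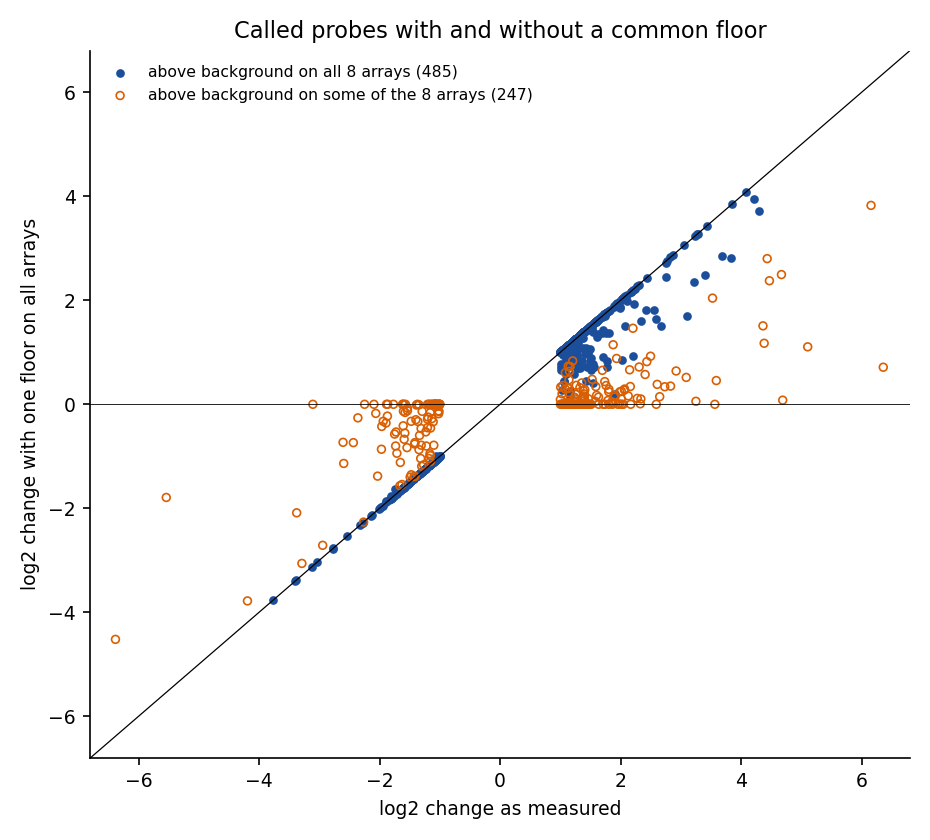
Log2 changes of the 732 called probes as measured (x axis) and after every level below the highest detection limit of the 8 arrays was raised to that limit (y axis). Many of the 247 probes detected on some arrays (open) move to 0; the 485 detected on all 8 arrays are filled, and among them CFB lies well off the diagonal, at 1.90 against 0.20.

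Whether the dose mattered on day 4 was asked in a model of all 24 arrays. No probe differed between 7.4 Gy and 6.7 Gy at an adjusted p under 0.05 and 2-fold (0%); 78 did at an unadjusted p under 0.05 (0.277%), and the methods' t-test also called 0. The 6.7 Gy comparison uses the same controls, so its values are given side by side. GDF15 changed by 4.00 after 6.7 Gy and 3.86 after 7.4 Gy, a dose difference of -0.15 (SE 0.327). For DDB2 the changes were 2.71 and 2.76, a difference of 0.06 (SE 0.192), and for S100G -3.33 and -3.76, a difference of -0.43 (SE 0.583). OLFM4 had 1.66 after 6.7 Gy and 3.40 after 7.4 Gy, a difference of 1.73 (SE 1.07, unadjusted p = 0.122). The median of the p53 list was 0.76 after 6.7 Gy against 1.05, that of the matrix list 0.80 against 1.12 and that of oxidative phosphorylation -0.59 against -0.57.

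Between day 4 and day 7 after 7.4 Gy 463 probes differed (1.64%), 240 higher and 223 lower on day 7; taking the percentile over the probes that every array detected, the split was 188 and 266. The methods' t-test called 0 of them, although 700 had an unadjusted p under 0.05 with 2-fold, and the 8 arrays of both groups alone gave 12. The count ran from 184 without 7.4 Gy day 4 replicate 1 to 698 without replicate 4 of that group, with 246 without its replicate 3 and 249 without day 7 replicate 1. This comparison shares the day 4 arrays with the one against control. Among p53 targets GDF15 was lower on day 7 by 2.26 on the log2 scale (adjusted p = 0.00161), DDB2 changed by -1.23 (adjusted p = 0.00237) and TIGAR by -1.23 (adjusted p = 0.00733). ACKR1 and VCAM1 changed by -1.51 (adjusted p = 0.00233) and -1.34 (adjusted p = 0.00179) and lay 0.25 and 0.24 above control on day 7. S100G was higher on day 7 by 2.96 (adjusted p = 0.00843), and KLK3 lower at -5.23 (adjusted p = 0.00929) for its brighter called probe. MT2A (0.37, adjusted p = 0.752) and HMOX1 (0.06, adjusted p = 0.931) did not differ at this threshold, with day 7 changes from control of 3.64 and -1.26. SDHC was higher on day 7 by 1.04 (adjusted p = 0.00161), and the median of oxidative phosphorylation was 0.06 on that day, while the median of mitosis genes was 1.18.

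**Figure D5:**
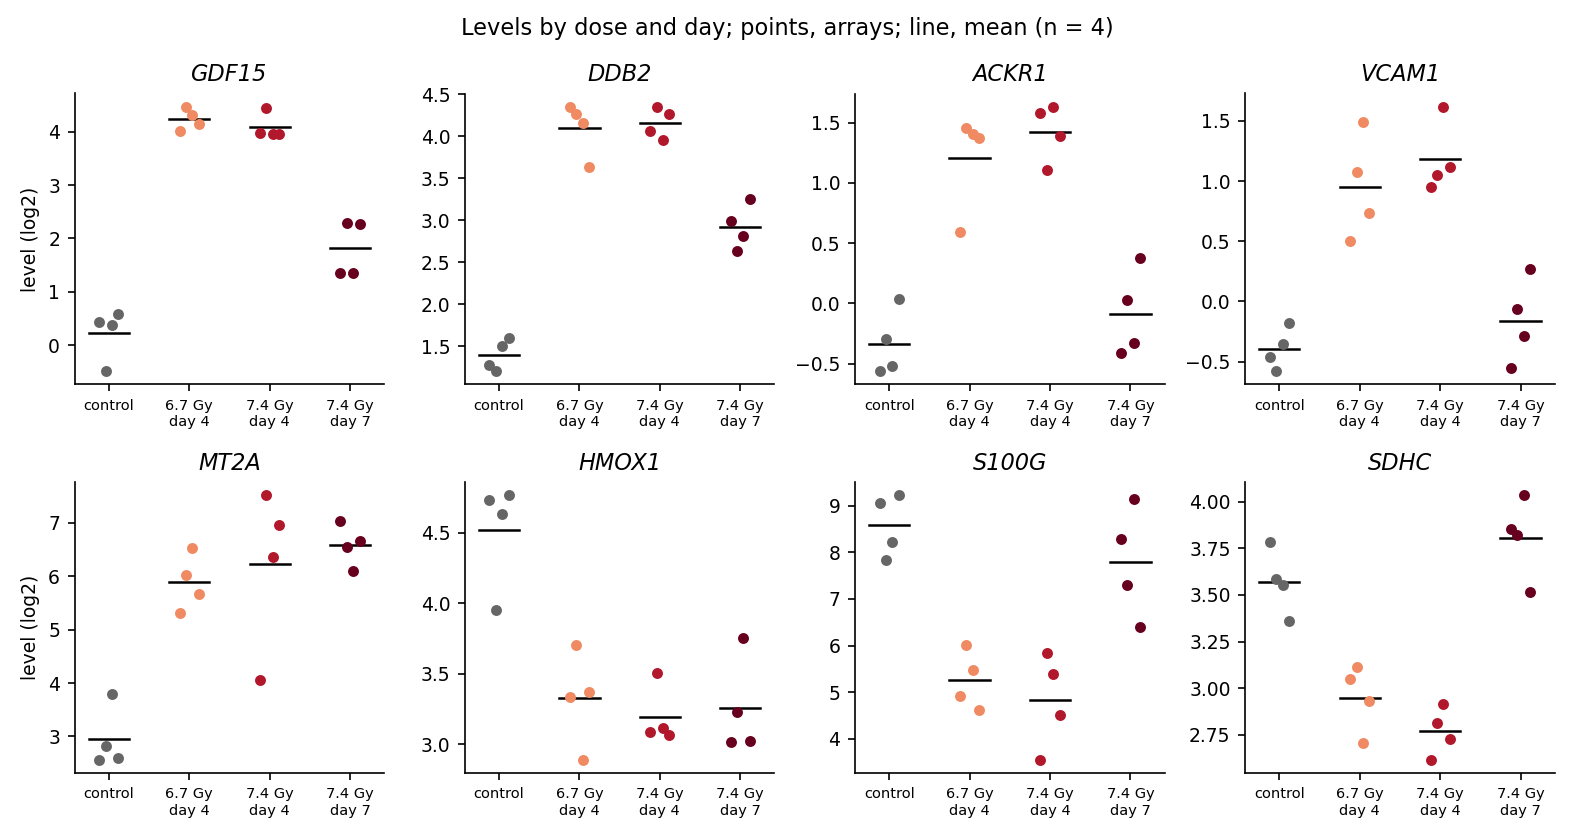
Levels (log2, relative to the array's 75th percentile) of 8 genes in the controls, on day 4 after either dose and on day 7 after the higher one; points are arrays and lines are means of 4. GDF15, DDB2, ACKR1 and VCAM1 are high at both doses on day 4 and lower on day 7, S100G and SDHC are low on day 4 and higher on day 7, and the MT2A and HMOX1 means of both days lie within 0.37 of each other.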

How the data were processed

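Jejunal RNA of 24 rhesus macaques, 1 sample an animal, was hybridised to 1-colour Agilent rhesus arrays (4 on each of 6 slides); the 8 arrays of the controls and of 7.4 Gy on day 4 were compared. The intensity values deposited by the authors came from Agilent Feature Extraction 11.0.1.1, whose processed signal is corrected for background and whose detection mark was used here. A table deposited by the authors, of log2 values from GeneSpring scaled to the 75th percentile and centred on the median of each entry, served as an alternative. Saturation affected no probe.

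After removal of control spots, replicate spots were averaged and each array's 75th percentile was subtracted on the log2 scale. Of 43603 probes, 28168 were well above background throughout 1 or more of the 7 groups and were tested on the 8 arrays in limma 3.58.1 under R 4.3.3 (lmFit, eBayes), and p-values were adjusted by Benjamini-Hochberg over all of them. Calls needed an adjusted p under 0.05 and a 2-fold change, the limits of the study's methods. Doses and days were compared in 1 model of 7 groups on 24 arrays. The scripts were tested on simulated data.

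The authors' table gave symbols for 23674 probes, of which 3184 were renamed by gene ID through the RefSeq table of assembly T2T-MMU8v2.0, and 328 more were named by RefSeq accession; 19601 probes carried none. A gene stands at its brightest tested probe unless another is named. No sequences are shown, and no genome coordinates were used. The number of arrays limits the precision. A bound ("at least") sets the mean of the irradiated arrays against the control arrays' detection limits or own values, whichever were higher, as means of normalised log2 values.

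The groups, members and gene lists were chosen with earlier results of these data known, so no count over a list is independent support. Named genes were, among called probes detected on all 8 arrays without overlap, the 10 symbols with the largest rise and the 10 with the largest fall; for each list up to 4 called members (up to 8 for p53 targets, metallothioneins, chemokines, brush border enzymes, nutrient transporters, fat absorption, B cells and mitosis, with their best known member), or the 2 of smallest p where none was called. Other genes are named to fill in a list. Alternatives were normexp on the median signal (offset 50), other percentiles, quantile normalization, the authors' table, other filters, a common floor, the methods' t-test, trend and robust fits, slide, position, scan day and replicate number as blocks, and single arrays left out; leaving out slides 4 and 5 was added after seeing the data. Some list members are not reported singly here, though the list counts hold them.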

Additional observations from a re-analysis of the deposited data

Results flagged for a closer look

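Among the probes named, 1 sample stood apart from the other 3 of its group in 19 of 298 groups of 4 by Dixon's criterion, where chance alone flags about 1 in 20. Control replicate 1 stood apart for CST6 at -0.31 (others -2.82 to -2.46), FN1 at 2.43 (others 3.10 to 3.16), SLC27A4 at 1.31 (others 0.35 to 0.48) and SLC5A1 at 4.94 (others 4.10 to 4.17). Control replicate 2 stood apart for CFB at -4.40 (others -3.38 to -3.27) and HMOX1 at 3.95 (others 4.63 to 4.77). Control replicate 3 stood apart for MT1E at 3.86 (others 2.64 to 2.77) and MT1X at 3.67 (others 2.69 to 2.83). Control replicate 4 stood apart for CALD1 at 1.35 (others 0.53 to 0.63), KLK3 at -5.33 (others -8.65 to -8.13; not well above background on any control array, with a detection limit of -3.33 on this array and of -6.88 to -6.83 on the others), PLK2 at -2.42 (others -1.84 to -1.72) and SERPING1 at 3.80 (others 3.41 to 3.45). On 7.4 Gy day 4 replicate 1 the value stood apart for CCR1 at -2.87 (others -2.58 to -2.56). On 7.4 Gy day 4 replicate 2 the value stood apart for GDF15 at 4.44 (others 3.96 to 3.97) and HMOX1 at 3.51 (others 3.07 to 3.12). On 7.4 Gy day 4 replicate 3 the value stood apart for PRG3 at 5.53 (others 5.96 to 6.00). On 7.4 Gy day 4 replicate 4 the value stood apart for FAS at -0.77 (others -0.43 to -0.38), MME at 1.64 (others 2.64 to 2.77) and MMP12 at -2.45 (others -0.09 to 0.31).

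The change from control differed between day 7 and day 4 after 7.4 Gy for 31 of the probes called on day 4 and named here, each tested as day 7 minus day 4 in the model of all 24 arrays (limma, at least 2-fold, adjusted p between 0.00128 and 0.0413). The log2 difference was below 0 for ACKR1 (-1.51), CCL21 (-1.12), CST6 (-2.05), DDB2 (-1.23), EDA2R (-1.13), GDF15 (-2.26), GUCA2A (-2.06), IER3 (-1.23), the called KLK3 probes (-5.23 and -5.15), LCN15 (-3.27), the dim MDM2 probe (-1.23), PHLDA3 (-1.02), SERPINE2 (-1.60), SLC5A11 (-4.13), SLC6A20 (-1.74), TIGAR (-1.23), TIMP1 (-1.06), TMEM211 (-3.54), VCAM1 (-1.34), VIP (-1.55) and ZMAT3 (-1.11). It was above 0 for ACKR4 (1.23), the called GSTA1 probe (2.25), PYY (1.60), S100G (2.96) and SLC27A4 (1.40), and for the 4 probes described as glutathione S-transferase A3 (3.59, 2.72, 1.78 and 1.81). These differences share the day 4 arrays with the comparison against control. LCN15, the dim MDM2 probe, PYY, SLC5A11, TMEM211 and both KLK3 probes entered the tests through groups in which they were high, which gives their calls no support by themselves. SLC6A20 and ZMAT3 were detected throughout neither the controls nor 7.4 Gy on day 4. The methods' t-test called none of these differences.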

How the results depend on the processing

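The count of 732 called probes stayed within 1.5 times under normexp (559), the other percentile (809), quantile normalization (583), the authors' table (733), the filter on probes detected on all 8 arrays (597) or in the groups compared (742), trend and robust fits (816), all 24 arrays in 1 model (761) and slide as a random (818) or fixed block (790). It was 388 with 1 probe per gene, 299 with the common floor, 301 by the methods' t-test, 97 without the filter on dim probes, 174 with scan day as a block, 17 with position as a block and 12 without slides 4 and 5, chosen after seeing the data; leaving out 1 array gave 295 (without control replicate 2) to 653. With the replicate number as a block it was 129, and same-numbered samples did not deviate together (correlations of 0.0037 to 0.046), so the numbers do not pair them. For day 7 against day 4 the count of 463 was 261 without the filter, 12 on the 8 arrays alone, 0 by the methods' t-test and 0 with the limma replicate block (700 and 877 at an unadjusted p under 0.05 with 2-fold), and 184 to 698 with 1 array left out. The dose comparison gave 0 calls under all 14 alternatives, the replicate block among them (80 probes under it at an unadjusted p under 0.05 with 2-fold). The causes were not tested.

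Of 106 called probes named, all kept their direction within slide 3 and within slide 4, with 1 array a group there and no test. Where the groups of a probe do not overlap, any pair of arrays keeps the direction, so this outcome was fixed in advance for such probes. The call held for 26 without the filter on dim probes and for 7 without slides 4 and 5. It held for 57 with the common floor, 59 by the methods' t-test, 37 with the scan day block and 38 with the replicate block. With the position block 7 kept it: DDB2, EDA2R, GDF15 and PHLDA3, and, entered through groups in which they were high, GHRL and the dimmer probes of HBA2 and MDM2. The terms of the position block rest on other groups than these. That block turned CXCL8 (-0.16), MX1 (-0.26) and OLFM4 (-1.28), and of values not called FABP2 (0.16), LCT (-0.34), MDM2 (0.038), NSDHL (0.013), SLC5A1 (0.045) and TREML1 (-1.37), MDM2 here and below at its brightest probe. Other uncalled values changed sign as follows: LCT (-0.020), TFF1 (-0.51) and MDM2 (0.061) without slides 4 and 5; TOP2A (-0.15), ITLN1 (0.20) and MDM2 (0.024) with scan day; TOP2A (-0.11) and MDM2 (0.071) with slide as a fixed block; TREML1 (-0.52) and MDM2 (0.030) with quantile normalization. MDM2, at 0.00 here, was also 0.071 with the other percentile, 0.021 with normexp and 0.016 with slide as a random block. With 1 array left out, TOP2A ran from -0.12 to 0.33 and MDM2 from -0.11 to 0.052.

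Signal over background limits the dim probes: on 7.4 Gy replicate 3 the lowest signal well above background was 277, on control replicate 3 it was 7.03.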
